A study of Mus musculus with 2 samples.

Results

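The 39 genes described here are 27 immediate early genes and 12 heat shock genes, chosen by symbol from the 32285 genes of the count matrices. All 39 symbols were found and each had counts. They were grouped by role as 7 genes of the AP-1 family (Fos, Fosb, Fosl1, Fosl2, Jun, Junb and Jund), 11 other immediate early transcription factors (Egr1, Egr2, Egr3, Atf3, Maff, Nr4a1, Nr4a2, Klf2, Klf4, Klf6 and Klf10), 9 feedback and other immediate early genes (Ier2, Ier3, Ier5, Btg2, Zfp36, Dusp1, Dusp2, Socs3 and Rhob) and 12 chaperones and co-chaperones (Hspa1a, Hspa1b, Hspa8, Hsph1, Dnaja1, Dnajb1, Hspb1, Hspe1, Hspd1, Hsp90aa1, Hsp90ab1 and Bag3). The 20 immediate early genes outside AP-1 were also summed together.

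Single-cell RNA was measured in MMTV-PyMT mammary tumors of 2 mice of 1 genotype, with no control group. Both mice carried Krt8-CreERT and the Rosa26-mTmG reporter, received tamoxifen at 150 mg/kg on 6 days in weeks 5 and 6, and had tumors of 1.5 cm3 when these were taken and digested for 2 hours in collagenase and hyaluronidase. Live GFP-positive cells negative for CD31 and CD45 were sorted, to select descendants of cells in which the Krt8 promoter had driven the Cre. Some of the sorted cells held markers of other cell types, as given below. Each library came from 1 mouse. The authors placed 3829 cells of mouse 1 and 5330 of mouse 2 in 18 clusters, which are called here by their numbers.

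The matrices held 63140346 unique molecular identifiers (UMIs, 1 per captured transcript) in mouse 1 and 61529883 in mouse 2. Annotated cells had a median of 15014 and 9470 UMIs. The immediate early genes held 0.848% and 0.945% of the UMIs of annotated cells, and the heat shock genes 1.21% and 1.06%. The libraries shared 20 barcodes, 9 of them annotated in both. Levels are CPM, a gene's UMIs per 1000000 UMIs of the cells of 1 mouse in 1 cluster, given for mouse 1 and then mouse 2. Leaving mitochondrial genes out of the total, the 8 pan-luminal markers, Krt8 among them, summed to 20647 and 23968 CPM in annotated cells and the 8 macrophage markers to 22.6 and 23.5 CPM.

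Immediate early genes are switched on within minutes of growth factor, stress or mechanical signals, without new protein synthesis, by transcription factors that are already in the cell. Fos and Jun proteins pair to form AP-1, while genes such as Dusp1, Zfp36 and Socs3 damp the signal or degrade its transcripts. Heat shock genes encode chaperones that fold or rescue proteins, and heat shock factor induces many of them when unfolded proteins build up. Both groups are also known to respond to the dissociation of tissue, and some members, such as Jund, Hspa8 and Hsp90ab1, are made at all times.

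Promoter sequence is shown for members whose start region held a motif of a known inducer of their group, as examples of the sequence at their start sites. RefSeq sequence on GRCm38.p6, 250 bases before to 50 after the start site, matched 31 of the 39 genes. A pair of inverted heat shock units was searched for as GAANNTTC or TTCNNGAA, the cyclic AMP response element as TGACGTCA, and the CArG box, which serum response factor binds, by its consensus, all on both strands. Capitals mark the match and run 5′ to 3′ on the gene's strand.
Hspa1a, chr17:34972237-34972276, minus strand: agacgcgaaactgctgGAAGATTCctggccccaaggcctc
Hspa1b, chr17:34959319-34959358, minus strand: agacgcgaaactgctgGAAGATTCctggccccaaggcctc
Hspb1, chr5:135887786-135887845, plus strand: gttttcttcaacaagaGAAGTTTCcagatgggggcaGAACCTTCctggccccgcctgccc
Hspe1, chr1:55088043-55088092, plus strand: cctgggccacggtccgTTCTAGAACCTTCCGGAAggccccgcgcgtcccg
Dnaja1, chr4:40722328-40722367, plus strand: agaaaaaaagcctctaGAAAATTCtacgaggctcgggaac
Dusp1, chr17:26508592-26508631, minus strand: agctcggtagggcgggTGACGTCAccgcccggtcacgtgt
Btg2, chr1:134079298-134079337, minus strand: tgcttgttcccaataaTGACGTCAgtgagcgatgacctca
Maff, chr15:79347475-79347514, plus strand: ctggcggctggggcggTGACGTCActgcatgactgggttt
Zfp36, chr7:28379261-28379302, minus strand: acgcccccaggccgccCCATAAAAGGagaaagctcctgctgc
Egr2, chr10:67537478-67537519, plus strand: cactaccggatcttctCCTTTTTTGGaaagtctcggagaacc

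The paired heat shock unit was in 8 of the 9 heat shock promoters that matched, every one but Dnajb1, in 3 of 22 immediate early promoters (Egr2, Fosl2 and Jun), and in 15.1% of all 32544 promoters of this length. The Hspe1 stretch lies between the divergently transcribed Hspe1 and Hspd1, and both promoters contain it. Hspa1a and Hspa1b, neighbouring genes that encode nearly the same inducible Hsp70, shared 296 of 300 promoter bases. The cyclic AMP response element was in Btg2, Dusp1 and Maff (1.80% of all promoters) and the CArG box in Egr2 and Zfp36 (1.64%). The AP-1 site TGANTCA was in Bag3 alone (7.79% of all promoters), and TATAAA in Fos, Junb and Nr4a2 (13.6%). These matches describe letters in a window and were not tested against the levels.

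Summed AP-1 and the other immediate early genes peaked in cluster 9 and the heat shock genes in cluster 12, in both mice. AP-1 in cluster 9 was at 16747 and 21389 CPM, 7.48 times the median of the other clusters on average. Cluster 1 followed with 12158 and 13245 CPM, 5.00 times the median of the others. No other cluster reached these levels in either mouse. Clusters 13 (5486 and 5427 CPM) and 12 (4747 and 5709 CPM) came next, and their values overlapped. Summed AP-1 was lowest in cluster 8, at 1225 CPM in mouse 1, while cluster 14 of mouse 2 was lower still, at 1216 CPM against 1471 CPM in its cluster 8.

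The other 20 immediate early genes also peaked in cluster 9, at 16348 and 18784 CPM, 3.60 times the median of the other clusters, and came next in cluster 1, at 9923 and 11578 CPM. Clusters 10, 13 and 6 followed and lay close together, at 7496 and 8530, 6642 and 7020, and 6229 and 6431 CPM. Cluster 11 was low in both mice, at 1989 and 2287 CPM. The heat shock sum had another order. It was highest in cluster 12, at 32102 and 33782 CPM or 3.25 times the median of the others, then in cluster 9, at 22307 and 23422 CPM, and between 6602 and 13171 CPM in the other 16 clusters of both mice. Cluster 1, second for AP-1, was at 8293 and 7737 CPM for heat shock genes. The clusters were drawn by the authors from the same expression values, so these heights are descriptions and carry no test.

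**Figure D1:**
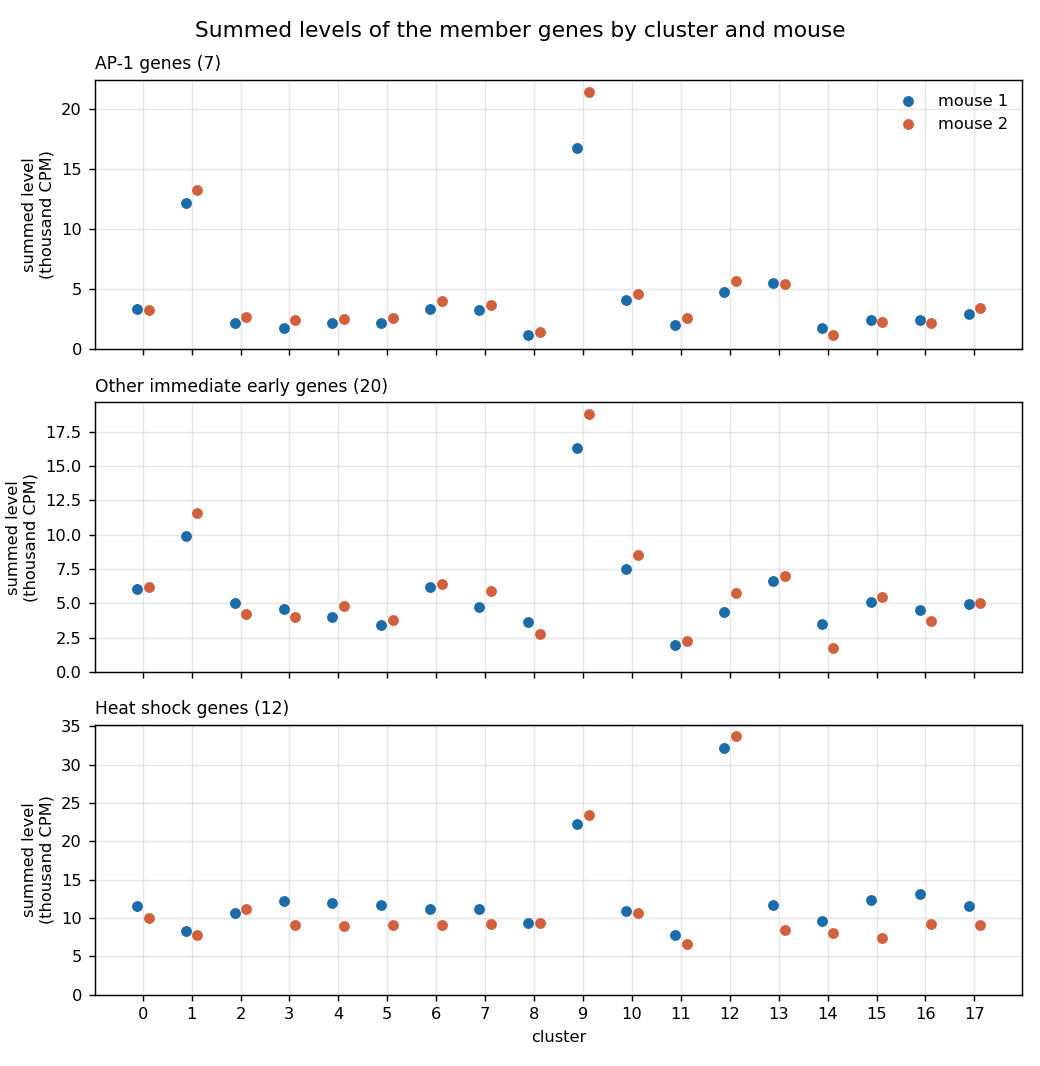
Summed level of the AP-1, other immediate early and heat shock genes (in units of 1000 CPM) in each of the 18 clusters, 1 point per mouse. Clusters 9 and 1 stand highest in the AP-1 panel, and clusters 12 and 9 in the heat shock panel, in both mice.

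Cluster 9 held much of the UMIs of some members. Cluster 9 (138 and 235 cells) had 2.39% and 2.93% of the UMIs of annotated cells, and 51.5% and 51.7% of the Fos UMIs. It also had 31.3% and 26.5% of those of Atf3, and 28.6% and 33.4% of those of Hspa1a. Its cells had a median of 7975 and 6343 UMIs and a mitochondrial share of 6.91% and 6.72%. Cluster 12 (78 and 190 cells) had 1.86% and 2.43% of all UMIs, and 18.2% and 20.6% of the Hspa1b UMIs. Jund was spread more evenly, with 5.38% and 6.69% of its UMIs in cluster 9.

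In cluster 9 most immediate early genes and 4 of the 12 heat shock genes were high. Of the 39 genes, 22 were at least 2 times the median of the other clusters in both mice (5 AP-1, 13 other immediate early and 4 heat shock), against 8.29% of 11603 genes. For 15 genes cluster 9 was the highest of the 18 clusters in both mice, against 0.836% of genes. Members made up 12 of its 20 leading genes by fold.

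Fos, whose transcript is short-lived, was at 5116 and 8008 CPM in cluster 9, against a median over clusters of 214 and 162 CPM and a lowest value of 21.8 and 63.6 CPM in cluster 3. Egr1, a zinc finger factor, was at 1748 and 2934 CPM, and Atf3, a stress-induced relative of AP-1, at 2392 and 3183 CPM, with medians over clusters of 144 and 180 CPM and of 121 and 176 CPM. In both mice these 3 genes were more than 12 times over the median of the other clusters, with cluster 1 second for Fos and Egr1 at 2161 and 2555 CPM and 833 and 1108 CPM. Junb (2058 and 2741 CPM), Nr4a1 (656 and 1026 CPM), Btg2 (2246 and 2491 CPM) and Zfp36, which destabilises AU-rich transcripts (1766 and 1670 CPM), were likewise highest in cluster 9 in both mice. Jund, the constitutive subunit, was at 2963 and 3084 CPM there, 2.46 and 2.52 times the median of the others. Fosl1, a late AP-1 gene, was low with 23.5 and 46.7 CPM, 0.20 and 0.45 times the median of the others. Dusp2, with 87 UMIs in all annotated cells, had no UMI in cluster 9, which allows up to 2.14 and 1.80 CPM (3 UMIs, counting error only).

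The 4 heat shock genes at least 2 times over in both mice were Hspa1a, Hspa1b, Dnajb1 and Hsph1. Hspa1a was at 3202 and 3124 CPM (median over clusters 165 and 127 CPM) and Hspa1b at 3600 and 3115 CPM (359 and 212 CPM). Hspb1, a small heat shock protein gene, was at 5368 and 6744 CPM, which was 1.89 and 3.79 times the median of the others. Dnajb1, a co-chaperone of Hsp70, was at 330 and 382 CPM, and Hsph1, which exchanges its nucleotide, at 192 and 178 CPM. Hsp90ab1, the constitutive Hsp90, was at 4678 and 4131 CPM, against medians over clusters of 3930 and 3266 CPM, and Hspd1, the mitochondrial chaperonin, at 218 and 291 CPM.

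By the same 2-fold rule, cluster 12 was high in most heat shock genes and in few immediate early genes. There, 8 of the 12 heat shock genes were at least 2 times the median of the other clusters in both mice. These were Hspa1a, Hspa1b, Hspa8, Hsph1, Dnaja1, Dnajb1, Hspb1 and Hsp90aa1. Fosb, Jund and Egr3 were too, so that 11 of 39 members passed, against 2.40% of genes. Summed AP-1 in cluster 12 was 1.96 and 2.14 times the median of the others. For 6 members, all heat shock genes, cluster 12 was the highest in both mice, against 0.284% of genes. Hspb1 was at 8819 and 13655 CPM, against medians of 2849 and 1821 CPM. Hspa8, the constitutive Hsc70, was at 3737 and 4009 CPM (medians 1307 and 1244 CPM), Hspa1b at 4739 and 3159 CPM, and Dnaja1, another Hsp70 co-chaperone, at 1425 and 1220 CPM. Fos was at 219 and 299 CPM in cluster 12, 1.05 and 2.08 times the median of the others, and Egr1 (62.5 and 111 CPM) and Ier2 (91.8 and 115 CPM) were below theirs. Amtn, Cst3 and Bgn were the leading genes of cluster 12 next to Hspa1a, Hspa1b and Fosb.

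Cluster 1 was high in immediate early genes and in few heat shock genes. Of the 39 members, 20 were at least 2 times the median of the others in both mice (4 AP-1, 14 other immediate early and 2 heat shock), against 18.5% of genes. Jun was at 5228 and 5179 CPM and Klf10, a TGF-beta inducible factor, at 424 and 474 CPM, the highest of any cluster in both mice. Fos was at 2161 and 2555 CPM. Hsp90ab1 (2270 and 1847 CPM), Hspe1 (253 and 172 CPM) and Hspd1 (132 and 143 CPM) were lowest in cluster 1 in both mice. The median cell of cluster 1 held only 1258 and 1009 UMIs and had a mitochondrial share of 9.38% and 7.56%, against medians of 6.20% and 5.42% in all annotated cells, and its leading genes were Gm26917, Lars2 and Rasd1. The part of depth and mitochondrial share in these levels was not tested. Cluster 5, also shallow at 2059 and 1639 UMIs, had summed AP-1 of 2181 and 2636 CPM.

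**Figure D2:**
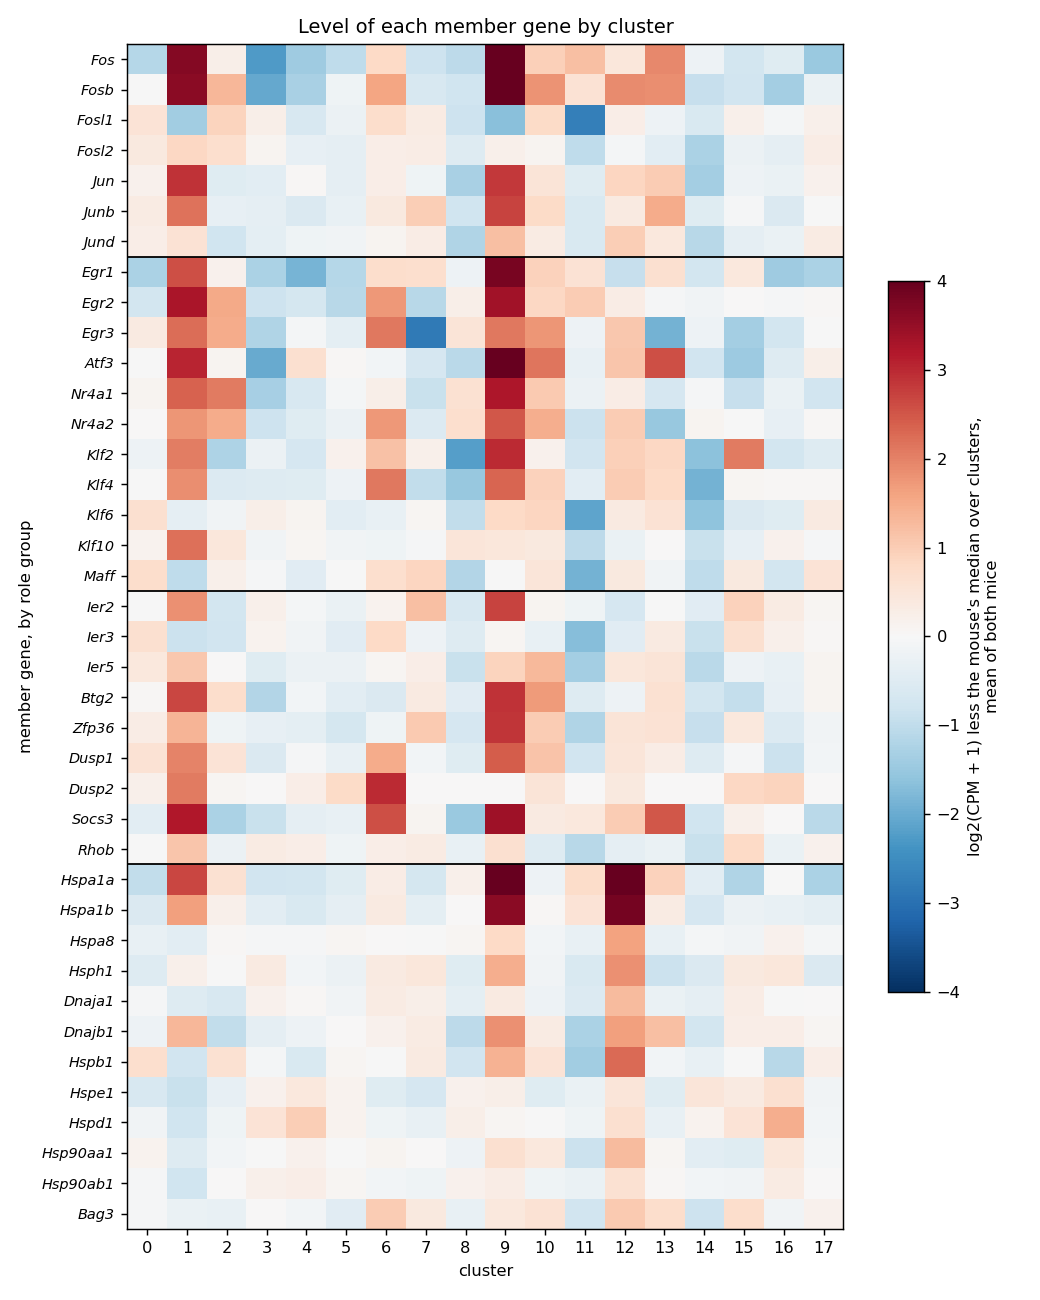
Level of each of the 39 genes in each cluster as log2(CPM + 1) less the mouse's median over the 18 clusters, averaged over the 2 mice, with the colour scale ending at 4 in either direction. Most immediate early genes are red in clusters 9 and 1, and heat shock genes in cluster 12. There 8 of the 12 heat shock genes were at least 2 times the median of the other clusters in both mice, against 2.40% of genes.

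The spread over cells differed between clusters. When each cell was thinned to 2000 UMIs, the median cell of cluster 9 had 29 and 37 AP-1 UMIs, against 5 and 6 in all cells, and its 10th percentile was 12.2 and 16. The median cell of cluster 12 had 58 and 63 heat shock UMIs, against 22 and 18 in all cells, with 9 and 10 AP-1 UMIs. Cluster 9 cells had a median of 35 and 36 heat shock UMIs and a 90th percentile of 120 and 104. In cluster 1 the 10th percentile, median and 90th percentile were 3, 14 and 66.6 AP-1 UMIs in mouse 1 and 3.5, 16 and 43.5 in mouse 2, over only 77 and 76 cells, since 268 and 425 cells had too few UMIs to thin. Thinning left out 492 of 3829 cells of mouse 1 and 857 of 5330 cells of mouse 2.

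Members were at most 0.5 times the median of the other clusters in both mice most often in clusters 11, 8 and 3. Cluster 14 was also low in summed AP-1, at 1802 and 1216 CPM. In cluster 8, Jun, Jund, Klf2, Dusp2, Socs3, Maff and Dnajb1 were at most 0.5 times the median of the others in both mice, 7 of 39, against 9.55% of genes. In cluster 11, 10 members were (Fosl1, Ier3, Ier5, Klf6, Zfp36, Dusp2, Maff, Rhob, Dnajb1 and Hspb1), against 4.75% of genes. In cluster 3, Fos, Fosb, Egr1, Egr2, Atf3, Btg2 and Dusp2 were, 7 of 39 and no heat shock gene, against 4.18% of genes, and 3 members were lowest there of all clusters in both mice. Dusp2 counts in each because most clusters had no UMI of it. Cluster 11 had a median mitochondrial share of 11.4% and 11.6%. Cluster 10 was highest in both mice for Klf6 (1847 and 1847 CPM), a Krüppel-like factor, and for Ier5 (940 and 859 CPM), which is also a target of heat shock factor. Cluster 16 was highest in both mice for Hspd1 (623 and 690 CPM). In cluster 6, 9 of 39 members were at least 2 times the median of the others in both mice (Fosb, Egr2, Egr3, Nr4a2, Klf2, Klf4, Dusp1, Dusp2 and Socs3), against 10.6% of genes, and in cluster 13, 8 were (Fos, Fosb, Jun, Junb, Atf3, Socs3, Hspa1a and Dnajb1), against 6.90%.

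All 39 members varied among the 18 clusters by more than the mice did within clusters (edgeR's quasi-likelihood F test with the mouse as a block, Benjamini-Hochberg adjusted p under 0.05), but so did 81.0% of all genes. F was largest for Jun (76.5, adjusted p = 1.7e-13) and Fosb (61.5, adjusted p = 1.4e-12), was 26.6 for Hspa1a (adjusted p = 1.4e-09) and smallest for Hsph1 (4.63, adjusted p = 0.0008). Without clusters 1, 9 and 12, an alternative chosen after seeing the data, 34 of 38 tested members still passed, against 8203 of 11908 genes. Hspa1a, Hspa1b, Hspa8 and Hsph1 then did not.

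The log2 sums over 18 clusters had a Pearson r between mice of 0.972 for AP-1. It was 0.916 for the other immediate early genes and 0.924 for heat shock genes. For heat shock genes the mice shared their highest and lowest clusters, but ranked others differently. In mouse 1 cluster 15 ranked 4 from the highest and cluster 2 ranked 14, against 17 and 3 in mouse 2. Levels differed between mice: the heat shock sum was higher in mouse 1 in 15 of 18 clusters, and the AP-1 sum and the other immediate early sum were each higher in mouse 2 in 13 of 18. Fosb and Egr3 were each higher in mouse 2 in 17 clusters, and Hspe1 was higher in mouse 1 in 17. With 1 library per mouse, the animal and its library cannot be told apart.

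Over the 36 sums of mouse and cluster, each mouse centred on its mean, AP-1 and the other immediate early genes had r = 0.881, and 0.740 to 0.808 with cluster 9, clusters 9 and 1, or clusters 1, 9 and 12 left out. AP-1 and heat shock genes had r = 0.452, and 0.199, 0.488 and 0.3004 with these left out. These are descriptions over sums that share the 2 libraries. Jun (0.926), Junb (0.918) and Zfp36 (0.918) followed the summed immediate early level most closely, and Fosl1 did not (-0.08). Dnajb1 followed it too (0.789), while Hspe1 (-0.36) and Hspd1 (-0.34) ran against it. The genes outside the 39 most like the immediate early sum, among 5622 genes with a mean of at least 20 CPM, were Ccnl1 (0.895), Gm26532 (0.890), Tra2b (0.869), Tob1 (0.839) and Ppp1r15a (0.831). Among those most like the heat shock sum were Ubb (0.687), which encodes ubiquitin, H3f3b (0.646), Erf (0.618) and Yod1 (0.596). Ubb was at 4305 and 3091 CPM in cluster 9 and 5464 and 3996 CPM in cluster 12, against medians of 1766 and 1646 CPM.

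Hspa1a (chr17:34969190-34972156) and Hspa1b (chr17:34956436-34959238, both minus strand, GRCm38) share sequence, and 49.3% of the 90-base windows of the Hspa1a transcript and 52.3% of those of Hspa1b occur in the other gene, but none of those in the last 500 bases of either, where 3′ libraries read. Hspa1a held 47% and 50% of the UMIs of the pair in cluster 9, and 39% and 46% in cluster 12. Their sum was 6802 and 6239 CPM in cluster 9, 7740 and 5894 CPM in cluster 12 and 2001 and 1584 CPM in cluster 1, so the clusters were high for the pair however its UMIs were split.

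Cluster 6, led by Igfbp3, Col3a1 and Sparc and high in the basal keratin Krt17, was compared with cluster 13, led by Fgb, Fam25c and Krt6a, which is the comparison the study drew. Tests used sums per mouse, and ask only whether both mice show a difference between clusters that had been drawn from the same values. Of 38 members tested, 18 passed, 9 higher and 9 lower in cluster 6, against 28.4% of 9794 genes, 16.3% higher and 12.1% lower. By role, 8 of 11 other immediate early transcription factors passed (6 higher and 2 lower) and 4 of 7 AP-1 genes (1 higher and 3 lower). So did 3 of 8 feedback genes (1 higher and 2 lower) and 3 of 12 heat shock genes (1 higher and 2 lower). With DESeq2 these 4 counts were 4, 3, 2 and 1, against 1117 of 9794 genes. The median log2 fold change was 0.00 for the members and 0.01 for all genes. Dusp2, with 1.17 and 28.3 CPM in cluster 6 and no UMI in cluster 13, was too low to test.

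Of the AP-1 genes, 3 fell and 1 rose in cluster 6. Fos was at 208 and 508 CPM in cluster 6, against 685 and 725 CPM in cluster 13, or -1.21 as a log2 fold change (SE 0.24, adjusted p = 0.00017 by edgeR). Junb was at 371 and 608 CPM in cluster 6, against 1194 and 892 CPM in cluster 13 (-1.21, SE 0.23, adjusted p = 7.2e-05). Jun was at 755 and 907 CPM in cluster 6, against 1492 and 1331 CPM in cluster 13 (-0.86, SE 0.19, adjusted p = 0.00066). In each the clusters did not overlap, but the same held for members that did not pass, such as Jund. The share of all genes without overlap was not counted, here or in the comparisons below. Fosl1 rose, with 181 and 177 CPM in cluster 6 and 96.8 and 93.5 CPM in cluster 13 (0.82, SE 0.25, adjusted p = 0.011). Jund, the AP-1 gene with the most UMIs, had 1475 and 1336 CPM in cluster 6 and 1576 and 1908 CPM in cluster 13 and did not pass (adjusted p = 0.11).

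The transcription factors outside AP-1 went both ways. Atf3 had the smallest adjusted p of the members, with 123 and 147 CPM in cluster 6, against 757 and 1019 CPM in cluster 13 (-2.80, SE 0.23, adjusted p = 6.8e-12). The early growth response gene Egr3 was at 31.4 and 88.7 CPM in cluster 6, against 0 and 9.93 CPM in cluster 13 (3.49, SE 0.45, adjusted p = 1.2e-07). Nr4a2, an orphan nuclear receptor, was at 109 and 87.4 CPM in cluster 6, against 6.56 and 13.7 CPM in cluster 13 (3.10, SE 0.36, adjusted p = 1.4e-08). None of these overlapped between clusters, but neither did Socs3, which did not pass. Klf4 was at 458 and 281 CPM in cluster 6, against 121 and 173 CPM in cluster 13 (1.21, SE 0.27, adjusted p = 0.0006). Egr2 was low in both, at 11.1 and 11.9 CPM in cluster 6 and 3.28 and 2.07 CPM in cluster 13 (2.06, SE 0.58, adjusted p = 0.0067). Klf6 fell, Nr4a1 and Maff rose, and Egr1 had 194 and 353 CPM in cluster 6 and 235 and 270 CPM in cluster 13, which overlap.

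Among the feedback genes, Btg2, an antiproliferative gene, was at 193 and 233 CPM in cluster 6, against 470 and 496 CPM in cluster 13 (-1.29, SE 0.23, adjusted p = 3.2e-05), and Zfp36 fell too (-0.82, SE 0.25, adjusted p = 0.0099). The MAP kinase phosphatase gene Dusp1 rose, with 318 and 487 CPM in cluster 6 and 194 and 157 CPM in cluster 13 (1.08, SE 0.25, adjusted p = 0.00091). Socs3, an inhibitor of JAK-STAT signalling, did not pass, at 104 and 99.4 CPM in cluster 6 and 95.9 and 95.2 CPM in cluster 13, with a log2 fold change of -0.01 (SE 0.26). Of the heat shock genes, Dnajb1 fell, at 107 and 121 CPM in cluster 6 and 235 and 226 CPM in cluster 13 (-1.11, SE 0.24, adjusted p = 0.00049). Hsph1 rose, at 104 and 71.1 CPM in cluster 6 and 50.02 and 26.5 CPM in cluster 13 (1.14, SE 0.29, adjusted p = 0.0024). Hspa1a, at 198 and 155 CPM in cluster 6 and 367 and 200 CPM in cluster 13, fell (-0.73, SE 0.24, adjusted p = 0.021) and did not pass without TMM factors. Hspb1, Hsp90ab1 and Hspa8, with the most UMIs, did not pass, and Hspb1 had 2734 and 1861 CPM in cluster 6 and 2931 and 1520 CPM in cluster 13.

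Cells with UMIs of at least 3 marker genes of another cell type made up 11.9% and 25.1% of cluster 6 and none of cluster 13. The 8 fibroblast markers summed to 1515 and 3080 CPM in cluster 6, against 39.4 and 323 CPM in cluster 13, and the endothelial markers to 24.9 and 335 CPM against 11.5 and 11.6 CPM. With those cells left out, 18 members passed, every one in the same direction, against 2591 of 9464 genes. The log2 fold change of Fos was then -1.76.

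**Figure D3:**
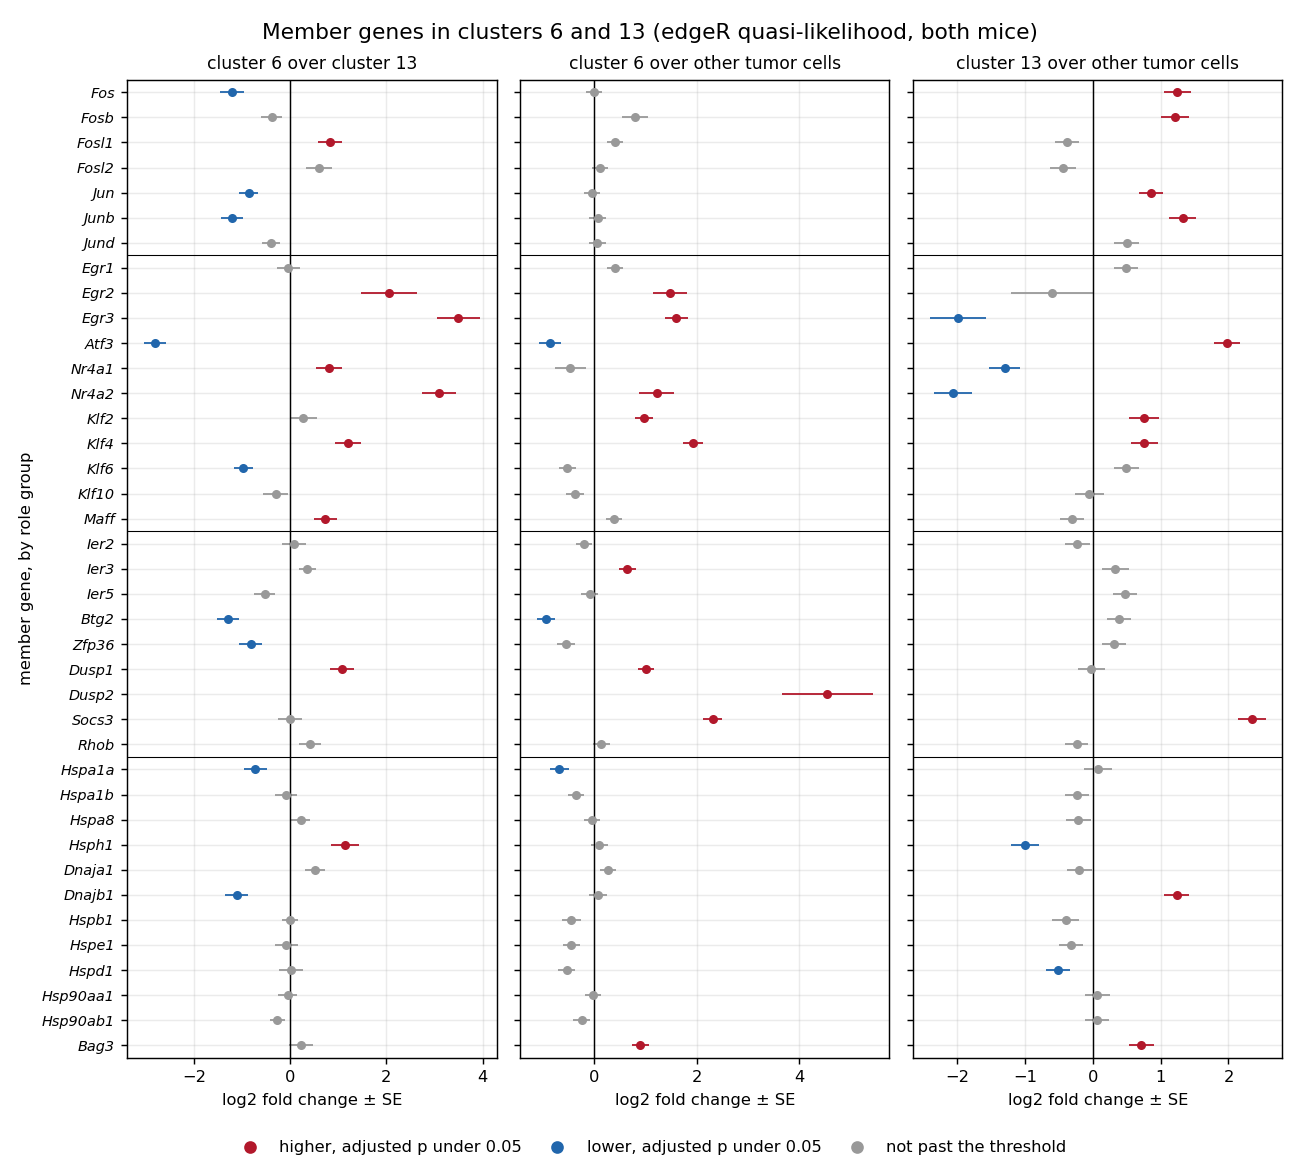
Log2 fold change with its SE (bars) of each tested member for cluster 6 over cluster 13, cluster 6 over the other tumor cells and cluster 13 over the other tumor cells, in red where higher and blue where lower at an adjusted p under 0.05, and grey otherwise. AP-1 genes are blue in 3 cases for cluster 6 over cluster 13, grey for cluster 6 over the other cells and red in 4 cases for cluster 13 over the other cells.

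Each cluster was also set against the other tumor cells, which are the annotated cells in neither of them. The 2 comparisons share these sums, and each cluster's sum also stands in the comparison above, so their values are given side by side only. In cluster 6, 13 of 39 members passed, 10 higher and 3 lower, against 18.8% of genes, 12.1% higher and 6.63% lower. None of 7 AP-1 genes passed in edgeR or in DESeq2, with 2 at an unadjusted p under 0.05, and 1, Fosb, passed without TMM factors. Some AP-1 genes passed with other sets of cells, as given below. In cluster 13, 15 of 38 passed, 10 higher and 5 lower, against 22.0% of genes, 11.0% higher and 11.0% lower, and 4 of 7 AP-1 genes rose. The median of all members was 0.07 for cluster 6 and 0.06 for cluster 13, and of all genes -0.06 and -0.10.

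In cluster 13, Fos was at 685 and 725 CPM, against 230 and 440 CPM in the other tumor cells (1.25, SE 0.20, adjusted p = 8.4e-05). Junb was at 1194 and 892 CPM, against 396 and 491 CPM in the other tumor cells (1.32, SE 0.20, adjusted p = 3e-05), and Jun (0.86) and Fosb rose as well, Fosb with 370 and 413 CPM in cluster 13 and 122 and 269 CPM in the other tumor cells. Atf3 was at 757 and 1019 CPM, against 174 and 328 CPM in the other tumor cells (1.98, SE 0.19, adjusted p = 9.1e-08), and Dnajb1 at 235 and 226 CPM, against 120 and 92.1 CPM (1.24, SE 0.18, adjusted p = 2.6e-05). These groups did not overlap. Klf4 (0.76), Klf2 (0.75) and Bag3 (0.72) also rose. Nr4a2 fell, with 6.56 and 13.7 CPM in cluster 13 and 26.96 and 64.6 CPM in the other tumor cells (-2.06, SE 0.28, adjusted p = 1.4e-05), as did Nr4a1 (-1.30), Hsph1 (-0.999) and Hspd1 (-0.51). Egr3 also fell (-1.99, SE 0.41, adjusted p = 0.0012), although its levels overlapped.

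In cluster 6, Socs3 was at 104 and 99.4 CPM, against 18.3 and 22.1 CPM in the other tumor cells (2.31, SE 0.19, adjusted p = 7.3e-05), and in cluster 13 at 95.9 and 95.2 CPM (2.34, SE 0.21, adjusted p = 2.9e-08). Klf4 in cluster 6 was at 458 and 281 CPM, against 98.4 and 86.7 CPM in the other tumor cells (1.93, SE 0.20, adjusted p = 0.00029). Bag3, which links Hsp70 to autophagy, was the heat shock gene that rose in cluster 6, with 119 and 124 CPM, against 67.2 and 59.8 CPM in the other tumor cells (0.90, SE 0.16, adjusted p = 0.005). These did not overlap. Klf2 (0.97), Dusp1 (1.02), Ier3 (0.65), Egr2 (1.48), Nr4a2 (1.22) and Egr3 (1.60) rose, the last with overlapping levels. Dusp2 also passed (4.55, SE 0.88, adjusted p = 0.0081), but on 4 and 45 UMIs in cluster 6, so mouse 2 carried it. Btg2 (-0.94, SE 0.17, adjusted p = 0.0062) and Atf3 (-0.86, SE 0.21, adjusted p = 0.022) fell.

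Clusters 1, 9 and 12 lie within the other tumor cells and were high in some members. Hspa1a in cluster 6 fell in this comparison, with 198 and 155 CPM, against 270 and 281 CPM in the other tumor cells (-0.68, SE 0.18, adjusted p = 0.033), and rose without those 3 clusters (0.57, adjusted p = 0.049). Fos in cluster 6 had a log2 fold change of 0.00, and of 1.55 without them (adjusted p = 0.00044). Fosb also passed in cluster 6 without them (1.54), and no other AP-1 gene did. In cluster 13 the count of members past the threshold was 23 without them, against 3145 of 13800 genes, with Fos at 2.80. With cells of other types left out, 20 members passed in cluster 6, against 2877 of 14049 genes. Of the AP-1 genes, Fos then fell (-0.53), Fosb (0.68) and Fosl1 (0.61) rose, and the others did not pass.

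Of 20 further immediate early genes in a list of the pathway, 12 passed in cluster 6 against cluster 13 (6 higher and 6 lower), where 28.4% of all genes did. With DESeq2 8 passed, against 1117 of 9794 genes. The matricellular gene Ccn2 led, at 712 and 502 CPM in cluster 6 and 66.4 and 2.90 CPM in cluster 13 (log2 fold change 4.75). Id1 (1.90) came next, with Irf1 (-2.32) and Id3 (-1.61) lowest. Against the other tumor cells, 9 of the 20 passed in cluster 6 (7 higher and 2 lower), against 18.8% of all genes. In cluster 13, 13 did (8 higher and 5 lower), against 22.0%. Of 21 other chaperones, 1 passed between clusters 6 and 13, against 28.4% of all genes. It was the small heat shock gene Cryab, at 406 and 448 CPM in cluster 6 and 18.04 and 48.4 CPM in cluster 13. Against the other tumor cells 4 of the 21 passed in cluster 6, where 18.8% of all genes did, and 3 in cluster 13, where 22.0% did. None of 14 upstream regulators, Srf and Hsf1 among them, passed between clusters 6 and 13 in edgeR or in DESeq2, and none had an unadjusted p under 0.05. Against the other tumor cells Elk3, a serum response factor partner, rose in both clusters (1.24 and 1.13).

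The last comparison is of barcodes the authors left out of the annotation. In each mouse, 906 and 827 unannotated barcodes had over 500 UMIs, over 200 genes and a mitochondrial share above that of every annotated cell (19.4% and 19.3% at most). They had a median of 2076 and 1838 UMIs and a mitochondrial share of 36.6% and 31.9%. Levels here are nuclear CPM, for which genes of the mitochondrial genome were left out of the total. Summed AP-1 was at 5904 and 5710 nuclear CPM in these high-mitochondrial barcodes, against 3341 and 3981 in annotated cells. The heat shock sum was at 9907 and 8378 nuclear CPM, against 12917 and 11324 in annotated cells, and neither sum overlapped. The other immediate early genes overlapped, at 6400 and 5803 nuclear CPM in these barcodes and 5734 and 6068 in annotated cells.

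Of the 39 members, 30 passed, 12 higher and 18 lower in the high-mitochondrial barcodes, against 41.1% of 14716 genes, 17.5% higher and 23.6% lower. TMM scaling set every log2 fold change 0.38 below the ratio of nuclear CPM. Without TMM factors 31 passed, 18 higher and 13 lower, and each of the 30 kept its sign. The balance of all 14716 genes turned as well, with 4340 higher and 1848 lower without TMM factors, against 2577 and 3476 with them. Heat shock genes passed in 11 of 12 cases (1 higher and 10 lower, or 2 and 7 without TMM factors), with a median log2 fold change of -0.74 against -0.02 for all genes. AP-1 genes passed in 6 of 7 (3 and 3, or 4 and 2), other immediate early transcription factors in 8 of 11 (6 and 2, or 8 and 2) and feedback genes in 5 of 9 (2 and 3, or 4 and 2).

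Fos was at 876 and 1234 nuclear CPM in the high-mitochondrial barcodes, against 255 and 483 in annotated cells (log2 fold change 1.18, SE 0.12, edgeR's adjusted p = 5.7e-09). Fosb (1.02), Jun (0.91), Egr1 (0.74), Nr4a1 (0.75), Nr4a2 (0.60), Klf10 (0.83), Atf3 (0.57), Egr2 (1.37) and Btg2 (0.77) also rose. Socs3 was at 88.3 and 92.9 nuclear CPM, against 26.6 and 29.1 in annotated cells (1.32, SE 0.15, adjusted p = 4.1e-08). Hspa1a was the heat shock gene that rose, at 618 and 455 nuclear CPM, against 287 and 292 in annotated cells (0.50, SE 0.12, adjusted p = 0.0013). These groups did not overlap.

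Maff, a small Maf factor, fell most, at 88.9 and 38.6 nuclear CPM in the high-mitochondrial barcodes and 204 and 113 in annotated cells (-1.72, SE 0.14, adjusted p = 3.2e-10). Hspb1 was at 1595 and 1309 nuclear CPM, against 3258 and 3011 in annotated cells (-1.50, SE 0.11, adjusted p = 6.8e-11). Ier3, which protects from apoptosis, was at 973 and 632 nuclear CPM, against 1687 and 1340 in annotated cells (-1.32, SE 0.11, adjusted p = 5.8e-10). These groups did not overlap. Fosl1 (-1.36), Klf6 (-1.19), Bag3 (-1.02), Dnaja1 (-0.99), Jund (-0.85), Hspe1 (-0.85) and Hspa8 (-0.80) fell too. Fosl2, Ier5, Hsph1, Dnajb1 and Hsp90ab1 fell with levels that overlapped, and did not pass without TMM factors.

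**Figure D4:**
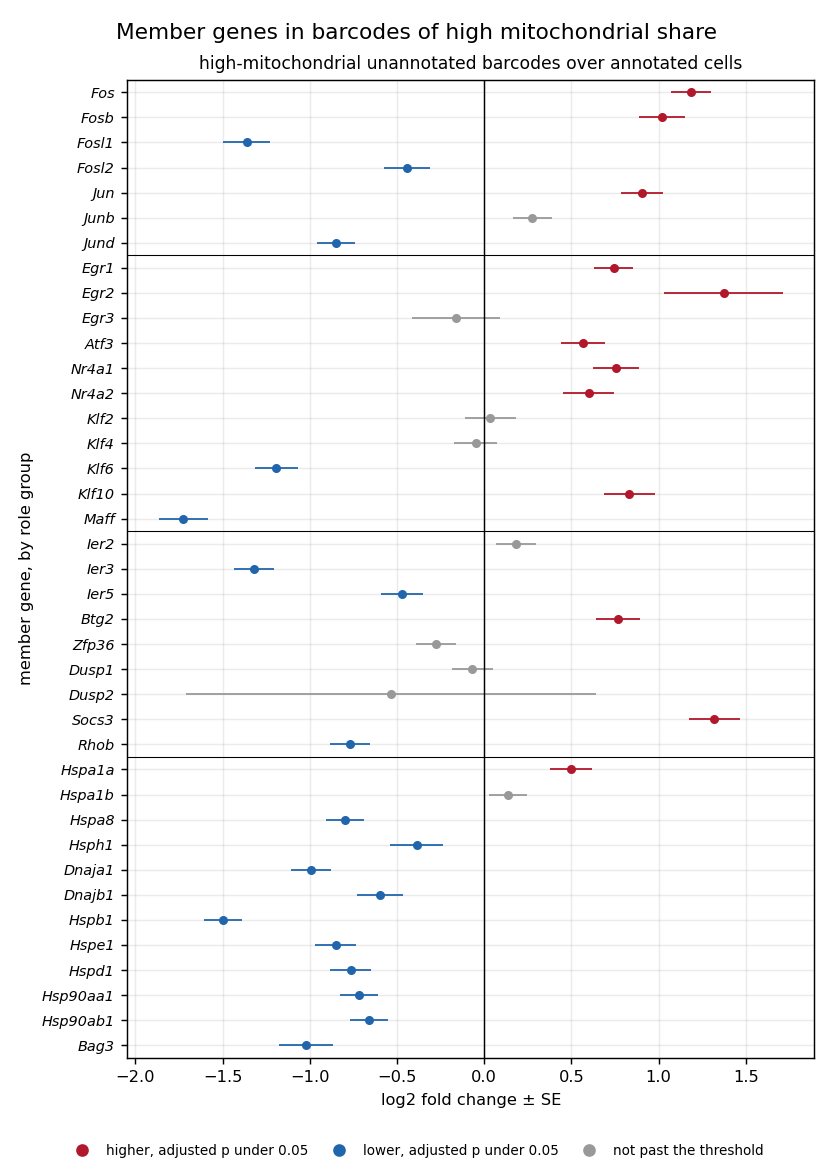
Log2 fold change with its SE (bars) of each member in high-mitochondrial unannotated barcodes over annotated cells, in red where higher and blue where lower at an adjusted p under 0.05, and grey otherwise. Of 12 heat shock genes 10 are blue and Hspa1a is red, where 23.6% of all genes were lower and 17.5% higher. Without TMM factors 7 heat shock genes were lower. Fos, Fosb and Jun are red, and Fosl1, Fosl2 and Jund are blue.

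Other lists moved in this comparison as well. Of the 21 other chaperones, 20 passed, 1 higher (Dnajb4, 0.69) and 19 lower, led by Cryab (-1.35) and Ptges3 (-1.30). Of the 20 further immediate early genes, 14 passed, 4 higher and 10 lower, with Irf1 (2.06) and Id1 (1.09) highest and Dusp5 (-1.06) and Mcl1 (-0.97) lowest. Of all genes, 41.1% passed, 17.5% higher and 23.6% lower. The log2 fold changes of both lists include the same TMM shift, 0.38 below the ratio of nuclear CPM. The 8 pan-luminal markers summed to 13281 and 13209 nuclear CPM in these barcodes, against 20647 and 23968 in annotated cells. The 8 macrophage markers summed to 40.2 and 81.5 nuclear CPM, against 22.6 and 23.5 in annotated cells, and the 5 neutrophil markers to 22.5 and 285, against 33.6 and 166. With barcodes thinned to 1000 nuclear UMIs, 25 of the 30 members passed in the same direction, against 3593 of 10228 genes. This thinning left out 426 of 906 and 397 of 827 high-mitochondrial barcodes as too shallow. With cells of other types left out all 30 passed in the same direction, where 6082 of 14579 genes passed. The part of depth and of other cells in the members' levels was not tested beyond these fits.

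The AP-1 sum did not follow the mitochondrial share evenly. In annotated cells it was lowest where 6% to 8% of UMIs were mitochondrial, at 3109 and 3582 nuclear CPM, and was 5304 and 5099 between 15% and 20%. In unannotated barcodes it was 6006 and 5775 nuclear CPM between 20% and 30%, and 5188 and 4852 above 50%. The heat shock sum in unannotated barcodes was 11462 and 8925 nuclear CPM between 20% and 30%, and 6253 and 7305 above 50%. In annotated cells it lay between 11606 and 13261 nuclear CPM in mouse 1, and between 9852 and 12727 in mouse 2.

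**Figure D5:**
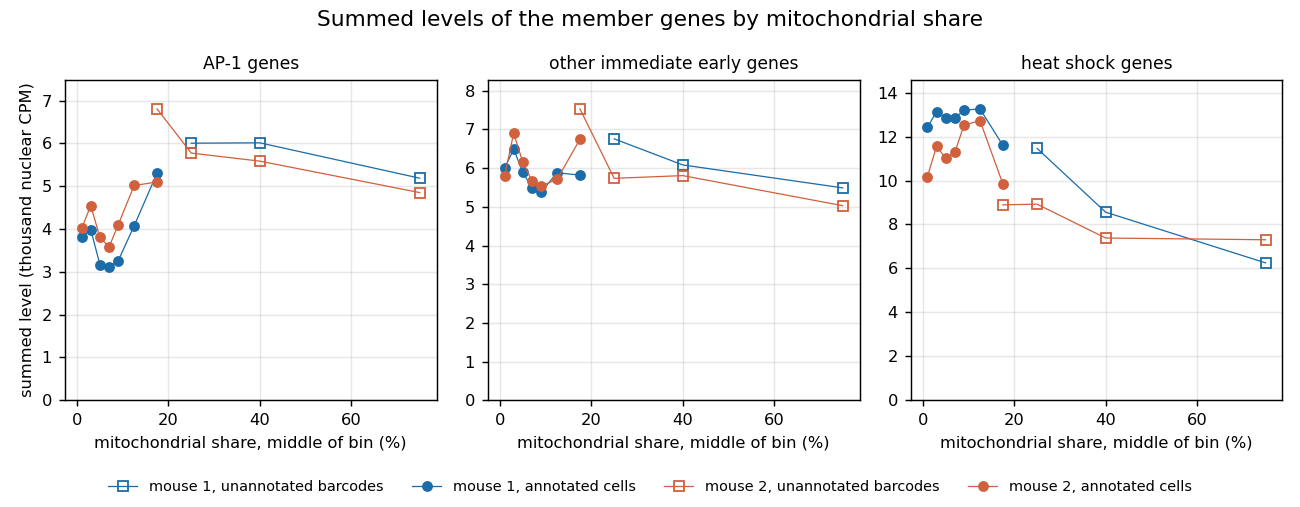
Summed level (in units of 1000 nuclear CPM) of the AP-1, other immediate early and heat shock genes by mitochondrial share of the barcodes (middle of the bin, %), for unannotated barcodes (open squares) and annotated cells (filled circles) of each mouse. Heat shock levels above a share of 50% were 6253 and 7305 nuclear CPM, the lowest of their mouse.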

How the data were processed

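The matrices that the authors deposited give unnormalized UMI counts per gene and barcode (10x 3′ v3.1, Cell Ranger 6.0.1, mm10), and their deposited annotation (Seurat 4.0.3) gives each cell's cluster, UMI and gene counts and mitochondrial fraction. Per the study's methods, doublets were removed with scDblFinder before annotation, as were cells of few UMIs or high mitochondrial share and immune clusters. No sample column was left unused.

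UMIs were summed per mouse and cluster. Sums were tested with edgeR 4.0.16 (R 4.3.3, limma 3.58.1) with filterByExpr, TMM factors, a block for the mouse, and a Benjamini-Hochberg threshold of 0.05 over all genes tested, and DESeq2 1.42.0 was an alternative. The pairing comes from the animal, and the deviations of same-mouse sums correlated with r of 0.139, 0.335, 0.202 and 0.459 in the 4 comparisons. Each fit of 2 groups had 1 residual degree of freedom. Standard errors divide the log2 fold change by the root of F. Scripts were tested on simulated data. The members, lists and comparisons were chosen with earlier results of these data known. Statistics are given for up to 5 members per role group and comparison past the threshold with the largest change and for the 3 with most UMIs, and further lists by up to 2 genes per direction. Figures used matplotlib 3.10.9. A gene that the rule for likeness named is not reported here.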

Additional observations from a re-analysis of the deposited data

How the results depend on the processing

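Counts of members past the threshold depended on the fit more than directions did. In cluster 6 against cluster 13 (18 members), 11 passed with all 18 clusters in 1 fit, 10 with DESeq2 and 13 without the mouse as a block. Counts of all genes moved too, with 2583 of 11603, 1117 of 9794 and 1996 of 9794 in these settings, against 2782 of 9794 in the main fit. For cluster 6 against the other tumor cells (13), 20 passed with cells of other types left out, 20 with no filter on low counts and 2 without the block. Of all genes, 2877 of 14049, 3645 of 21922 and 967 of 14350 then passed, against 2693 of 14350 in the main fit. For cluster 13 against the other tumor cells (15), 9 passed with cells thinned to 2000 UMIs, 23 without clusters 1, 9 and 12 and 6 without the block. Of all genes, 1182 of 10329, 3145 of 13800 and 1409 of 13964 then passed, against 3077 of 13964 in the main fit. For the high-mitochondrial barcodes (30), 14 passed without the block, where 1876 of 14716 genes did, against 6053 of 14716 in the main fit.

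With 1 sum left out, the lone sum being assumed to vary like the others, 0 to 11, 1 to 3, 1 to 3 and 0 to 18 members passed in these comparisons. None passed in edgeR without cluster 6 of mouse 2 (16 members at an unadjusted p under 0.05), or without the high-mitochondrial barcodes of mouse 1 (21) or of mouse 2 (18). DESeq2 was not run on the fits with 1 sum left out. Where no member passed, almost no other gene did either, so the loss was not particular to the members. Such a fit has 1 sum in a group and cannot decide which genes differ. Among members past the threshold 2 turned round: Hspa1a in cluster 6 against the other tumor cells without clusters 1, 9 and 12 (0.57) and Hsph1 in the high-mitochondrial barcodes without the annotated cells of mouse 1 (with 1 sum left out its value ran from -0.67 to 0.17). The cause was not tested.

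Each sum's peak stood higher without its most abundant gene, at 10.1 times the median of the other clusters for AP-1 without Jund, 4.53 for the other immediate early genes without Ier3 and 4.25 for heat shock without Hsp90ab1. The 2 mice, with 1 library each, limit every test.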
